A study of Arabidopsis thaliana with 2 samples.

Results

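The 50 Arabidopsis thaliana genes described here have a listed retained intron of medium length, over 110 and up to 250 nt. Each gene with a listed retention event was represented by its shortest listed intron, whose length is the distance between the flanking exons, and genes with a length in that range were kept. Of 199 genes with a listed retention event, among 281 genes listed for any splicing event, 53 lay in the range. The rule leaves out 3 of these by name (SNRK2.10, ATSPS4F and SAMC2), which gave 50 genes. Shorter introns represented 81 genes and longer ones 65. Members lay on all nuclear chromosomes, with 8, 9, 11, 9 and 13 genes on chromosomes 1 to 5. Of the 50 genes, 48 are protein-coding and 2 are transcribed pseudogenes in the RefSeq annotation.

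RNA of the lefko mutant was compared with RNA of wild type, both in the Col-0 ecotype, with 1 sample per genotype. Seedlings of both genotypes were grown on plates of Murashige and Skoog medium with sucrose in long days, and RNA was taken from cotyledons according to the protocol, while the source label names seeds. The protocol writes lefko1 where the sample's title has lefko2, no second allele or complemented line is part of the comparison, and the labels give neither the age of the seedlings nor the number pooled. Each count cell of the deposited tables holds 3 counts per genotype, called count sets here. Nothing in the labels ties the sets to separate cultures or plants, so SDs and p-values measure only the spread between sets, which may be technical.

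In intron retention, an intron that is normally cut out stays in the mature transcript. It is the most frequent form of alternative splicing in plants. An intron retained inside the coding sequence often brings a stop codon into the reading frame, and transcripts with an early stop can be removed by nonsense-mediated decay, although many retained-intron transcripts of plants stay in the nucleus and escape it. Lefkothea, after which the mutant appears to be named, has been described as a splicing factor for nuclear and chloroplast transcripts.

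The sequences at the 5′ splice sites show where the reading frame of the annotated spliced transcript would first meet a stop codon if the intron stayed in. When the annotated reading frame was followed into each of the 28 introns that lie in coding sequence, 27 held an in-frame stop codon. The median position of its first base was base 37 of the intron, in a range of 2 to 187, and in 12 introns it lay within the first 30 bases. In 4 introns the stop began at base 2, so that the T of the splice site GT was also the first base of the stop codon. Below are 10 exon bases followed by 20 intron bases for the 8 introns with the earliest stops, taken from the TAIR10.1 genome sequence of RefSeq, with the in-frame stop codon in capitals.
AAP5: taagtttggtgTAAgttaaaactttgcttt
AT2G03780: aggttcacaggTAAtttcaacacctctgtt
AT2G26810: tcaacgatgagTAAttttgttacacaaaca
AT2G30120: gtaaaggaaggTGAaaatttgaattctctt
AT4G04750: atacaaaaaggttTGAgactttttccaaga
AT5G65685: attgtttgaggtttTGAgtttcgtctcctt
AT4G34480: cagtagtcaggttagatacTAGaagttgtg
AT5G37478: ctctcccaaggttattcaaTAAttggttac
The windows lie at chr1:16766071-16766100, chr2:1153682-1153711, chr2:11435967-11435996, chr2:12861316-12861345, chr4:2417922-2417951, chr5:26275729-26275758, chr4:16481952-16481981 and chr5:14881592-14881621, in the same order. AT4G04750 and AT5G37478 are on the plus strand and the other genes on the minus strand. The stop codons are TAA or TGA where they begin at base 2. The same position was seen in 10.4% of 30706 annotated coding-sequence introns of that length and in 14.3% of the 28 member introns.

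**Figure D1:**
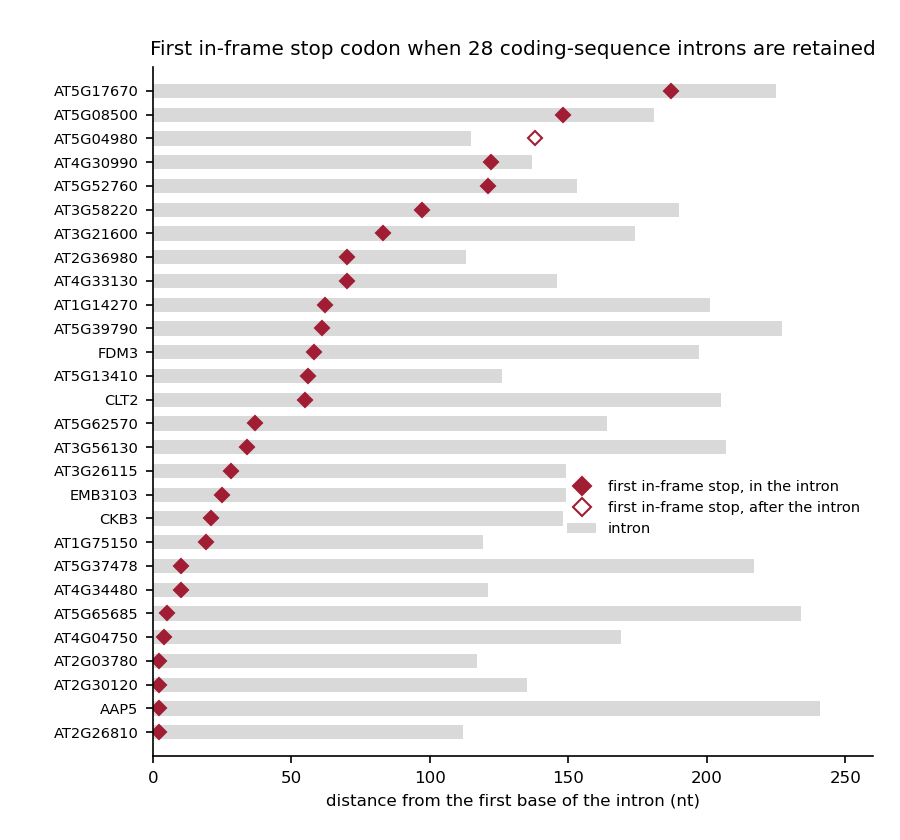
Length of the 28 coding-sequence introns (grey bars, nt from the first intron base) and position of the first in-frame stop codon when the intron is retained (diamonds). All diamonds lie inside their intron except that of AT5G04980, where the reading frame runs through the intron and meets a stop at base 138, in the next exon.

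Most medium-length introns in coding sequence hold a stop in the frame of the spliced transcript, in the genome as in this list. Annotated retaining transcripts do not always use that frame: in AT2G26810 and AT2G36980 such a transcript codes through the whole intron, and in AT1G14270, AT3G56130 and AT2G03780 its start codon lies inside the intron. Among annotated introns of that length 94.7% held an in-frame stop, against 64.5% of the shorter and 100% of the longer listed introns in coding sequence. In 22 of the 27 introns with a stop at least 1 further intron follows, and in 5 the retained intron is the last. The length was a multiple of 3 in 9 of 28, or 32.1%, beside 34.3% of annotated introns of that length. The intron follows only 0.211% of the coding sequence in AT2G36980, a tetratricopeptide repeat protein gene, and 98.7% of it in AT1G75150, annotated as DNA ligase-like.

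All 50 introns begin with GT and end with AG. The start GTAAG, searched on the transcribed strand at the first 5 bases, was found in 16% of them and in 16.5% of 34133 annotated introns of the same length range in protein-coding genes, and the end TGCAG, at the last 5 bases, in 22% and 19.8%. GC content was 33.1% in the median member intron and 32.9% in the median annotated intron of that length. By these measures the member introns were close to other introns of their length. Their annotation was not, since of the 46 member introns that an annotated transcript of the gene splices out, 41 (89.1%) are retained in another transcript of that gene. The same held for 86.1% of 187 such introns over all listed genes and for 8.67% of annotated introns of that length. The program that called the events is not given in the sources used here, so whether candidate events were taken from the annotation is not known.

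The inclusion share is the percentage of an event's reads that retain the intron, calculated in each count set and averaged over 3. It was higher in the mutant than in wild type in 41 of 50 genes (82%) and lower in 9. Over all 214 listed retention events, 83.2% were higher and 16.8% lower in the mutant. The median share of the members was 55.0% in wild type and 73.8% in the mutant, beside 52.6% and 70.1% over all 199 genes. The share is not corrected for length. Its wild-type median was 25.7% for shorter and 66.2% for longer listed introns. The median change of the members was 20.7 points, beside 18.9 points over all 199 genes. Shorter listed introns had a median change of 19.02 points and longer ones of 16.4 points. With inclusion reads divided by 2, the median change was 14.35 points for shorter and 17.8 points for longer listed introns. It was then 18.4 points for members and 16.7 points over all 199 genes. The order of shorter and longer introns thus depends on the share being uncorrected. The authors' deposited table lists only events with an adjusted p under 0.05 in this same contrast, so a change was a condition of membership, and these counts and medians are a description with no test.

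Members differed widely in read depth. At least 20 reads were counted in each of the sets for 29 members, of which 28 were higher and 1 lower in the mutant. The other 21 members, with fewer reads in at least 1 set, comprised 13 higher and 8 lower. Over all 199 genes, 147 reached 20 reads in each set, a larger part than among members, with 131 higher and 16 lower. The other 52 of these genes comprised 33 higher and 19 lower, so falls were more frequent at low depth in the whole list too. Among the 28 well-read rises the change ran from 10.8 to 27.2 points, 15 of them by 20 points or more, and wild-type shares ran from 9.51 to 84.2%. Retention passed from under 50% to over 50% in 9 of the 29 well-read genes, stayed under 50% in 8 and was already over 50% in wild type in 12. These counts depend on the share being uncorrected: with inclusion reads divided by 2, for the 2 exon-intron boundaries of a retained intron, they became 7, 17 and 5. Whether inclusion counts also hold reads from within the intron is not known, so this divisor may not be the right correction.

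The 3 sets of one genotype lay entirely apart from those of the other in 45 of 50 members, against 93% of the listed retention events. The exceptions were AT2G24140, AT5G37478, AT2G26810, AT5G04980 and AT4G08093, each with under 20 reads in a set. In limma on the log2 odds of inclusion, fitted over all 343 listed events with Benjamini-Hochberg adjustment, 43 of 50 members had an adjusted p under 0.05, 37 higher and 6 lower, where 88% of all listed events and 90.2% of listed retention events were called. All 29 well-read members were called with all sets, and 27 of them also without any 1 set. The exceptions were AT5G08500 and AT1G24095. The call rate over all well-read listed events is not given here, and every event had been listed for a change in this contrast. The calls of well-read members therefore do not set them apart from other listed events. The 7 without a call were the same 5 genes plus AT3G48070 and AT2G36980.

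**Figure D2:**
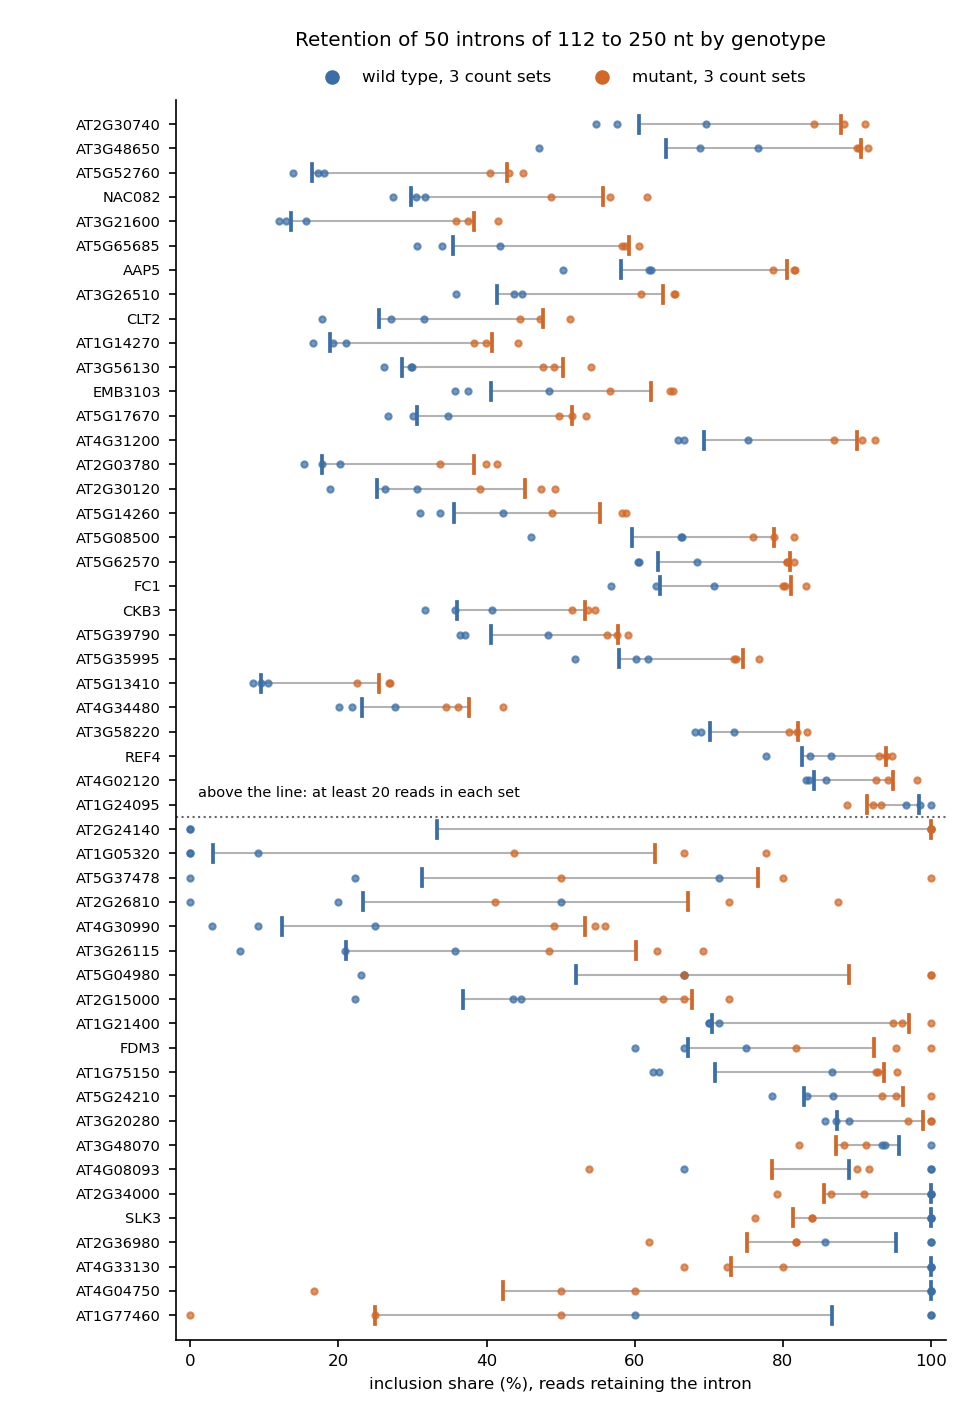
Inclusion share (%) of the 50 introns in each of 3 count sets of wild type (blue points) and mutant (orange points), with vertical ticks for the means. Above the dotted line are the 29 genes with at least 20 reads in each set, where 28 orange means lie to the right of the blue ones; below it the changes are larger in both directions and the sets more scattered.

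Genes of regulatory proteins included some of the largest well-read changes. AT2G30740 encodes a protein kinase superfamily member. Its retained intron of 152 nt is the first of the annotated spliced transcript, in the 5′ UTR, at chr2:13095485-13095636. Inclusion was 54.7, 69.6 and 57.6% in the wild-type sets and 88.2, 84.2 and 91.1% in the mutant sets. The lowest mutant set thus lay above the highest wild-type set, and the rise of 27.2 ± 4.97 points (SE, n = 3 count sets per genotype) was the largest among well-read members. Limma gave a log2 odds difference of 2.16 ± 0.35 (SE) with an adjusted p of 0.00306, and the authors' deposited table gives it an adjusted p of 0.000807.

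NAC082 encodes a NAC-domain transcription factor known from the response of Arabidopsis to disturbed ribosome production. Its first intron, 248 nt in the 5′ UTR at chr5:2895063-2895310, was among the more deeply read, with 1147 wild-type and 1377 mutant reads over the 3 sets. Retention was 31.6, 30.4 and 27.4% in wild type and 56.7, 48.7 and 61.6% in the mutant. All mutant sets lay above all wild-type sets. The rise of 25.8 ± 3.97 points had a limma adjusted p of 0.00284.

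Both other kinase genes moved the same way by less. FC1 encodes AFC1, a kinase of the LAMMER type, a class that phosphorylates SR splicing factors. Its intron in the 5′ UTR (chr3:19864154-19864362) was retained in 70.6, 56.8 and 62.9% of wild-type and 80.3, 80 and 83.2% of mutant reads, a rise of 17.7 ± 4.14 points. CKB3 encodes a regulatory beta subunit of casein kinase II, and its last intron (chr3:22270845-22270992) has a stop codon at base 21. Shares of 40.7, 35.7 and 31.6% in wild type rose to 54.6, 53.7 and 51.5% in the mutant, without overlap. The limma adjusted p was 0.00649 for FC1 and 0.00528 for CKB3. The 3 kinase genes among the members were all higher, with a median of 17.7 points, where 83.2% of listed retention events were higher. SNRK2.10, a kinase gene with a medium-length intron that the rule leaves out by name, changed by -15.4 points.

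Genes of transport proteins among the well-read members were AAP5, CLT2 and AT5G52760. AAP5 is an amino acid permease, a plasma membrane carrier that imports amino acids. Its intron of 241 nt (chr1:16765850-16766090), the one with TAA at base 2 in the sequence shown above, was retained in 50.3, 62.3 and 61.9% of wild-type reads and 81.7, 81.5 and 78.6% of mutant reads. Wild-type set 1 was the lowest, and even the highest wild-type set stayed well below the lowest mutant set. The rise was 22.4 ± 4.04 points with a limma adjusted p of 0.00294. Its retaining reads went from 460 to 1587 and its skipping reads from 338 to 380, so the total at this intron was also higher in the mutant.

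CLT2 is a chloroplast envelope transporter related to the chloroquine-resistance transporter, known for carrying glutathione and its precursor. Its intron 7 of 10 (chr4:12644517-12644721) had shares of 17.7, 27.04 and 31.6% in wild type and 44.5, 47.2 and 51.2% in the mutant. The wild-type sets were more scattered than the mutant sets, which were all higher. AT5G52760, annotated to a copper transport protein family, rose from 16.4% ± 2.22 to 42.8% ± 2.24 (SD, n = 3 count sets). Its reading frame runs far into the retained first intron, to a stop at base 121. The limma adjusted p was 0.00854 for CLT2 and 0.00167 for AT5G52760.

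Genes with enzyme names formed the largest word group, with 11 members, 9 higher and 2 lower and a median change of 15.9 points. AT5G65685, of the UDP-glycosyltransferase superfamily, had shares of 41.8, 34 and 30.6% in wild type and 60.5, 58.3 and 58.8% in the mutant. Its stop begins at base 5 of the first intron, with 11 introns still to follow. AT5G17670, an alpha/beta-hydrolase, rose from 26.7, 30.1 and 34.8% to 51.6, 49.7 and 53.4%, and holds the stop codon farthest into its intron, at base 187. Both genes had a spliced form that prevailed in all wild-type sets.

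AT5G13410, an FKBP-type prolyl isomerase that would assist protein folding, had the lowest wild-type retention among the well-read members. Its shares were 10.5, 8.49 and 9.52% in wild type and 22.5, 26.8 and 26.9% in the mutant, so the spliced form stayed the major one in all 6 sets. The change was 15.9 ± 1.57 points, with a limma log2 odds difference of 1.69 ± 0.18, while a change of similar size in AT5G35995, from a higher wild-type share, was 1.09 ± 0.21 on that scale. AT4G34480, a glycosyl hydrolase of family 17, a family that includes beta-1,3-glucanases, was the most deeply read, with 2173 wild-type and 2904 mutant reads. Its shares were 21.9, 20.03 and 27.6% and 34.5, 36.1 and 42.2%, and a second listed intron of this gene, 248 nt long at chr4:16481341-16481588, rose from 38.4% ± 4.66 to 63.4% ± 2.79 (SD, n = 3 count sets).

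Other well-read genes fell in no word group. AT5G39790 encodes PROTEIN TARGETING TO STARCH, known for bringing granule-bound starch synthase to starch granules, and rose from 36.5, 37.02 and 48.3% to 56.3, 59.1 and 57.7%. The third wild-type set stood above the other wild-type sets but below every mutant set. AT3G56130, with a biotin or lipoyl attachment domain, rose from 28.6% ± 2.18 to 50.3% ± 3.45. For AT3G21600, a senescence- and dehydration-associated protein family gene, the shares were 12.96, 12 and 15.6% and 35.9, 37.5 and 41.5%, so every mutant set was far above every wild-type set. The limma adjusted p was 0.0105, 0.00223 and 0.00167 for the 3 genes in that order.

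RNA-binding and gene-expression proteins were few. EMB3103 is a pentatricopeptide repeat protein, a family that acts on organellar RNA, and its last intron was retained in 48.5, 37.5 and 35.7% of wild-type reads and 56.6, 65.1 and 64.7% of mutant reads. Wild-type set 1 was the highest of its genotype, mutant set 1 the lowest of its own, and these did not overlap. AT4G31200 carries a SWAP/surp domain, which is found in splicing regulators, and retention of its first intron, in the 5′ UTR, was 65.9, 75.3 and 66.7% in wild type and 92.4, 90.7 and 86.96% in the mutant. AT2G03780 belongs to the translin family of nucleic acid-binding proteins and rose from 15.3, 17.8 and 20.2% to 41.4, 33.7 and 39.95%. AT2G30120 encodes FLC EXPRESSOR, needed for full expression of the floral repressor FLC, and its shares were 30.6, 26.3 and 18.8% and 49.3, 39.1 and 47.3%. The last 2 genes have the in-frame stop at base 2 shown above.

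AT1G14270 and AT5G35995 were the members of the word group for ubiquitin, F-box, proteasome or protease. AT1G14270, a CAAX amino terminal protease, had shares of 21.00, 16.5 and 19.3% in wild type and 44.2, 39.9 and 38.3% in the mutant, a rise of 21.9 ± 2.20 points. AT5G35995, an F-box protein of the class that selects targets for ubiquitination, had shares of 60.1, 61.8 and 51.9% and 73.4, 73.6 and 76.7%. In both genes every mutant set lay above every wild-type set. Limma gave adjusted p-values of 0.00206 and 0.00559.

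Of the remaining well-read genes in coding sequence, AT5G62570, a calmodulin-binding protein, had shares of 68.4, 60.6 and 60.4% in wild type and 81.5, 80.6 and 80.6% in the mutant, with the mutant sets almost level. AT5G08500, a CLPTM1 family membrane protein, rose from 66.3, 46.02 and 66.4% to 78.8, 81.5 and 75.9%, where the second wild-type set was well below the others. AT3G58220, a TRAF-like protein, rose by 11.8 ± 1.78 points to 82.02% ± 1.17. Limma adjusted p-values were 0.00271, 0.0211 and 0.00433. That of AT5G08500 was 0.0539 without lefko set 1 and 0.0630 without lefko set 2.

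Introns in untranslated regions cannot end the reading frame in the same way. In the 5′ UTR lay 12 member introns (24%), 10 higher and 2 lower, against 21.1% of the 199 genes and 8.01% of annotated introns of that length. Of these, 10 are the first intron of the annotated spliced transcript and 10 hold at least 1 ATG, with a median of 2 and at most 7. Their median wild-type share was 66.4% and their median change 19.2 points, beside 33.3% and 21.6 points for the 28 coding-sequence introns. At least 20 reads in each set were counted for 6 of the 12. Over all 199 genes, 42 introns lay in the 5′ UTR, 27 higher and 15 lower, with medians of 70.0% and 13.4 points. The split was 5 higher and 7 lower for shorter listed introns and 12 and 5 for longer ones. In AT2G24140 and AT1G24095 the annotated transcript that retains the intron takes its start codon from inside it, with 85 and 35 coding bases there.

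The 3′ UTR held 4 member introns, 3 higher and 1 lower. AT3G26510 encodes a PB1-domain protein of the octicosapeptide family. Its intron of 250 nt, at the upper limit of length, is the only one of the annotated spliced transcript that was followed. Its shares were 43.7, 35.9 and 44.7% in wild type and 65.2, 60.8 and 65.4% in the mutant, a rise of 22.4 ± 3.17 points with a limma adjusted p of 0.00301. AT5G14260, a Rubisco methyltransferase family gene, rose from 31.03, 33.7 and 42.2% to 58.3, 58.9 and 48.9% in its last intron. AT2G15000, with fewer reads, rose from 36.8% ± 12.7 to 67.7% ± 4.55, and AT3G48070 is among the lower genes described further on.

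AT3G48650, a transcribed pseudogene, had the second largest well-read rise, of 26.4 ± 8.82 points. Retention was 68.8, 76.6 and 47.1% in wild type, where set 3 stood apart as the lowest, and 90.3, 90 and 91.5% in the mutant, where the sets were level. Limma gave an adjusted p of 0.00713.

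In 4 members the listed junction is in no annotated transcript of the gene that the table names. The intron of AT4G02120, a CTP synthase that makes CTP from UTP, has standard splice sites, shown here as 10 exon and 20 intron bases at its start (chr4:943487-943516, plus strand) and 20 intron and 10 exon bases at its end (chr4:943687-943716), with GT and AG in capitals.
AT4G02120 5′ site: cttcaaaactGTaagtttaaaaattgcatt
AT4G02120 3′ site: tttttgtttgatgatgttAGgtgaatccag
Retention was the main state, 83.5, 83.1 and 85.8% in wild type and 92.5, 98.1 and 94.2% in the mutant, a rise of 10.8 ± 1.85 points with a limma adjusted p of 0.0145. Skipping reads were 13, 12 and 15 in the wild-type sets and 8, 2 and 5 in the mutant sets.

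The event listed under REF4, a Mediator subunit gene known for its part in phenylpropanoid metabolism, lies outside REF4. Its junction at chr2:19670691-19670807 is annotated in AT2G48100, an exonuclease family gene. Shares were 77.8, 86.5 and 83.6% in wild type and 92.9, 94.8 and 93.9% in the mutant, a rise of 11.2 ± 2.62 points with a limma adjusted p of 0.00322, and the values belong to that transcript's junction rather than to REF4 itself. The event listed under SLK3 likewise lies outside that gene, at chr4:13027893-13028071, where the junction is annotated in AT4G07405, a transcript antisense to AT4G25510. Since no strand-specific counting is stated, reads from overlapping and antisense genes cannot be told apart here. In AT2G34000, a RING/U-box gene, the junction lies within its only exon and spans the annotated start codon, with 119 coding bases inside it.

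The 9 genes with lower retention in the mutant all had a wild-type share over 85%, and in 4 of them no skipping read was counted in wild type. AT1G24095, a putative thiol-disulfide oxidoreductase, was the only one of the 9 with at least 20 reads in each set. Its shares were 96.6, 100 and 98.6% in wild type and 93.3, 92.2 and 88.7% in the mutant, a fall of 6.98 points. Its skipping reads went from 5 to 53 and its retaining reads from 263 to 573. Limma gave a log2 odds difference of -2.43 ± 0.72 and an adjusted p of 0.0216, which was 0.0667 without lefko set 3.

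Low wild-type counts limit the other falls. AT2G34000 had 0 skipping reads of 62 in wild type, which allows a skipping share of up to 4.84% by counting error alone (3 reads), and 4, 5 and 5 skipping reads in the mutant sets, where the share of retention was 90.9, 86.5 and 79.2%. For the SLK3 event the wild type had 0 skipping reads of 39, allowing up to 7.69%, and the mutant retention shares were 76.2, 84 and 84%. Both falls kept the sets apart, with limma adjusted p-values of 0.00244 and 0.00167. With 0 skipping reads in every wild-type set, however, the wild-type log2 odds vary only with the retaining reads. Both calls were lost in limma with precision weights, at an adjusted p of 0.0623 each.

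AT4G33130, a rho GTPase-activating protein gene that would switch off small GTPases, had 0 skipping reads of only 8 in wild type, which allows 37.5%. The mutant had 71 reads with retention of 66.7, 80 and 72.4%. AT4G04750, a major facilitator superfamily carrier with an early TGA in the sequence shown above, had 3 wild-type reads in all, 1 per set, so its wild-type share of 100% sets no useful bound, and 23 mutant reads with retention of 60, 50 and 16.7%. AT1G77460, or CELLULOSE SYNTHASE INTERACTIVE 3, a partner of cellulose synthase complexes, fell by 61.7 points on 9 wild-type and 10 mutant reads. Its exact 95% intervals over summed reads were 39.99 to 97.2% in wild type and 6.67 to 65.2% in the mutant, which overlap. Limma called these genes with adjusted p-values of 0.0238, 0.0268 and 0.0166, but the calls were lost under 6, 6 and 3 alternative settings. Fisher's exact test on summed reads gave adjusted p-values of 0.192, 0.229 and 0.0741. The lost calls include that of AT1G77460 without wild-type set 2 (limma adjusted p = 0.0508).

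Limma did not call 3 of the lower genes. AT3G48070, a RING/U-box gene that overlaps AT3G48080, had shares of 93.8, 100 and 93.3% in wild type and 82.2, 88.2 and 91.2% in the mutant, with an adjusted p of 0.0834. AT2G36980 had 95.2% ± 8.25 on 16 reads and 75.2% ± 11.5 on 65 reads, with an adjusted p of 0.0750. AT4G08093, a pseudogene, had 7 wild-type and 80 mutant reads, mutant shares of 90, 91.7 and 53.8% and an adjusted p of 0.743. Its mean share was lower in the mutant while its fitted log2 odds were higher, by 0.33 ± 0.95, so it has no settled direction.

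The 13 rises with fewer reads included the largest changes of the set, on the fewest reads. AT2G24140, a DUF593 family gene, moved by 66.7 points on 3 wild-type and 5 mutant reads, with an adjusted p of 0.0522 in limma. AT1G05320, annotated as myosin heavy chain-like, retained its first intron in 1 of 23 wild-type reads and 18 of 31 mutant reads. The exact 95% intervals were 0.110 to 21.9% and 39.1 to 75.5%, which do not overlap, and limma gave an adjusted p of 0.00311.

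AT4G30990, an ARM repeat protein gene, rose from 2.94, 9.09 and 25% to 54.7, 56 and 49.1%, with retaining reads of 1, 1 and 10 in wild type and 41, 42 and 28 in the mutant. AT3G26115, a pyridoxal phosphate-dependent enzyme, rose from 21.1% ± 14.5 to 60.2% ± 10.6, and AT1G21400, with a thiamin diphosphate-binding fold, from 70.5% ± 0.825 to 97.01% ± 2.67. FDM3, of the XH/XS-domain family that acts in RNA-directed DNA methylation, rose from 67.2% ± 7.52 to 92.4% ± 9.43 on 37 and 59 reads. In these 4 genes no wild-type set reached the lowest mutant set, and limma adjusted p-values ran from 0.00215 in AT1G21400 to 0.0360 in FDM3. The call of FDM3 was lost without wild-type set 1, 2 or 3 and without lefko set 3 (adjusted p = 0.0623 to 0.0946), and that of AT3G26115 without lefko set 3 (0.0546).

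AT1G75150, AT5G24210 and AT3G20280 started from high wild-type retention. Their mean shares moved from 70.8% to 93.6%, from 82.9% to 96.2% and from 87.3% to 98.96%, and limma called all 3 genes, the last a PHD-type zinc finger gene with an adjusted p of 0.00664. That of AT5G24210 was 0.0686 without wild-type set 1 and 0.0797 without wild-type set 2. A further 3 genes were not called, and their sets overlapped or met. AT5G37478, of the TPX2 spindle protein family, had shares of 22.2, 0 and 71.4% and 100, 80 and 50%. AT2G26810, a putative methyltransferase, had 20, 0 and 50% and 87.5, 41.2 and 72.7%, and AT5G04980, of the DNAse I-like superfamily, had 66.7, 66.7 and 23.1% and 100, 100 and 66.7%.

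A higher share can come from more retaining reads, fewer skipping reads or both. In all 28 well-read rises the retaining reads were more numerous in the mutant, while skipping reads were fewer in 17 and more numerous in 11. Over all 199 genes there were 131 well-read rises, with more retaining reads in 124. Skipping reads were fewer in 92 of these 131 and more numerous in 39. Among the 29 well-read members the median mutant to wild-type ratio was 2.17 for retaining reads and 0.852 for skipping reads. These medians were close to the 2.13 and 0.877 of all 147 well-read genes, so the balance was that of the whole list. AT3G21600 and AAP5 had ratios of 4.74 and 3.45 for retaining reads, with skipping ratios of 1.21 and 1.12. AT2G30740 and AT3G48650 had the opposite balance, with ratios of 1.19 and 1.53 for retaining and 0.242 and 0.273 for skipping reads.

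Reads at the member introns summed to 6818 to 7755 per wild-type set and to 9271 to 10153 per mutant set. Reads over all 343 listed events summed to 168946 to 187225 and to 166819 to 178604. Very deep events weigh heavily in the latter sums, with up to 47802 wild-type reads at a shorter listed intron. Taken gene by gene, the median mutant to wild-type ratio of reads was 1.44 for members. It was 1.29 for shorter and 1.57 for longer listed introns, and 1.36 over all genes with a listed retention event. The gain in reads was thus not particular to members. The sums cover listed events and are not library depths, which are unknown, so a ratio of reads compares counts that were not scaled to depth. A share does not depend on depth in this way, since both of its counts come from the same set.

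**Figure D3:**
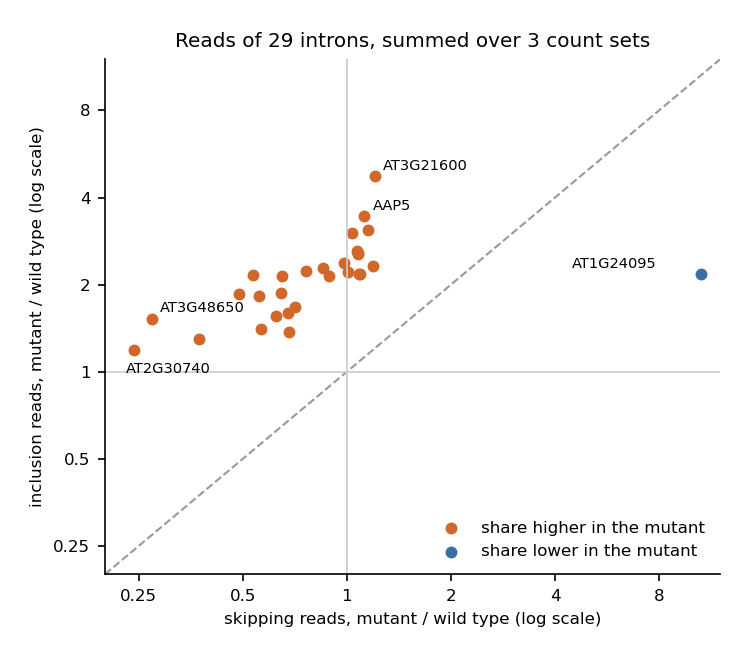
Mutant to wild-type ratio of retaining reads (vertical axis) against that of skipping reads (horizontal axis) for the 29 well-read introns, summed over 3 count sets, on log scales without scaling to depth. The 28 introns with a higher share lie above the dashed line of equal ratios and above 1 on the vertical axis, and AT1G24095 lies below the line.

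Several member genes had other listed events. AT5G62570 had an alternative 5′ splice site event with a share of 36.4% ± 2.85 in wild type and 58.9% ± 0.887 in the mutant (SD, n = 3 count sets), and AT1G14270 an alternative 3′ splice site event with 20.9% ± 1.28 and 40.2% ± 2.85. The SLK3 alternative 3′ splice site event changed from 100% to 80.6% ± 4.38. All 3 events use the junction of the retention event and hold the same skipping reads, so they are no separate measurement. AT2G30740 had an alternative 5′ splice site event elsewhere in the gene, on 6 wild-type and 13 mutant reads, which limma did not call (adjusted p = 0.178). Further retention events, all higher in the mutant, were listed in AT5G04980 (287 nt) and under REF4 (347 and 485 nt). The AT5G04980 event contains the member intron and shares its 3′ end. Under REF4, the event of 485 nt has the same start as the member intron and contains both it and the event of 347 nt. The change was 23.9 points in AT5G04980, with a limma adjusted p of 0.0546, and 7.08 and 15.0 points under REF4.

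As a description, Spearman's rho between intron length and change was 0.080 over 50 members and 0.348 over the 29 well-read ones, where points share libraries and differ in depth. At the limits of the range, RABG3A and AT1G31500, just outside with 109 nt, changed by 16.1 and 20.8 points, and AT2G26810 and AT2G36980, just inside with 112 and 113 nt, by 43.8 and -20.1 points. AT3G26510, with 250 nt, changed by 22.4 points, and AT5G54710, outside with 253 nt, by 30.7 points.

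**Figure D4:**
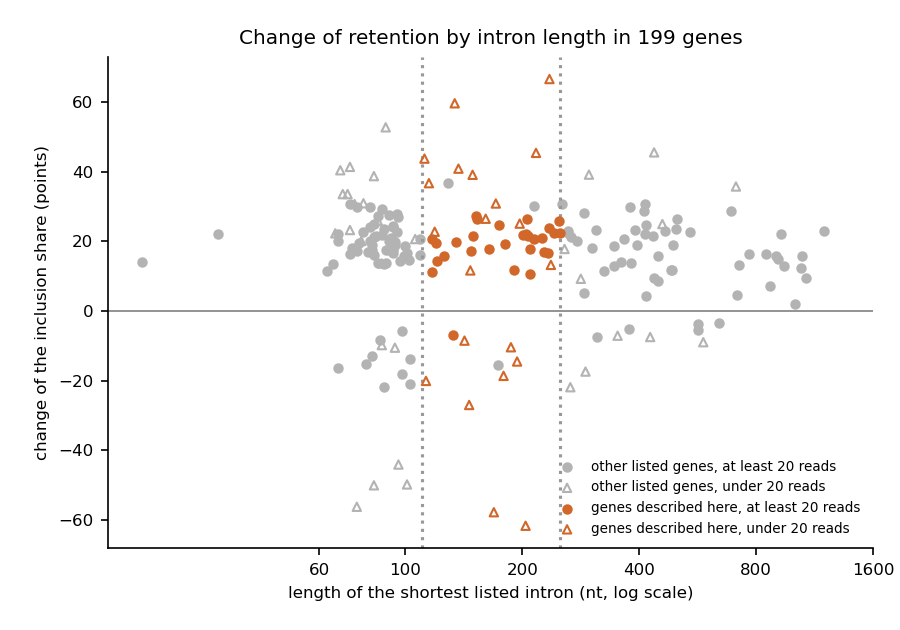
Change of the inclusion share (mutant minus wild type, points) against the length of the shortest listed intron (nt, log scale) for the 199 genes, with the 50 members in orange between the dotted lines. Filled circles mark genes with at least 20 reads in each set and open triangles the rest, which hold the largest changes in both directions within the range.

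Genes of messenger RNA quality control, the pathway that detects early stop codons and exon junctions, were looked up among all listed events. Of 9 such genes, 1 was listed: AT1G15280, of the Barentsz family of exon junction proteins, with an intron of 345 nt outside the range. Its retention rose from 61.2% ± 2.01 to 74.2% ± 2.93 (SD, n = 3 count sets), with a limma adjusted p of 0.00663. Of 9 cotyledon and leaf markers 2 had a listed event and of 6 seed storage markers none did. As the tables hold only listed events, the tissue named by the labels cannot be checked from expression levels.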

How the data were processed

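RNA-seq of 1 lefko and 1 wild-type sample was used. Per the submitters' processing notes, reads were aligned with HISAT2 2.0.4 to TAIR10; for the event caller, annotation and strand handling the sources used here give no name. Per the file headers, the 5 deposited tables, 1 per event class, hold for each event the inclusion and skipping read counts with a p-value and its adjusted form. They list 343 events with an adjusted p of at most 0.0491. Each deposited count cell holds 3 counts, taken as 3 count sets per genotype. The design had assumed 1 sample per genotype and planned shares, SDs and limma over the count sets, and this plan was kept.

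The inclusion share was inclusion reads over inclusion plus skipping reads, with no correction for length. Limma 3.58.1 in R 4.3.3 was fitted to the log2 of (inclusion + 0.5) over (skipping + 0.5) for all 343 events, with Benjamini-Hochberg adjustment; it was tested on simulated data. Because the events had been listed for a change in this contrast, its p-values describe the spread between sets. Introns were placed on the RefSeq TAIR10.1 assembly, whose sequence versions are those in the files, and coordinates are 1-based. Reading frames and intron numbers followed the annotated spliced transcript, the one with the longest coding sequence where several splice the intron out. Intervals are exact (Clopper-Pearson, 95%) and, like the limit of 3 reads for a count of 0, cover counting error only. Shares, annotation and figures used Python 3.11.15, SciPy 1.17.1, pandas 2.3.3, NumPy 2.4.6 and matplotlib 3.10.9.

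Members, lists and tests were chosen with earlier results of these data known. Genes were named by a rule: with at least 20 reads in each set, the 12 largest rises and up to 8 largest falls, the 4 largest changes in each of 8 word groups of gene descriptions, and members with an event in another class. This named 22 genes, and the other members are described so that all 50 are accounted for. The word groups transcription or chromatin, chloroplast, and stress or defence held 0 members, transporter 1, RNA 1, ubiquitin or protease 2, kinase or phosphatase 3 and enzyme 11, and 32 members fell in none. The groups match words in the descriptions and do not count functions. NAC082 thus fell outside the transcription group, and AAP5, AT5G52760 and AT4G04750 outside the transporter group. Alternatives were stricter adjusted p, change, read and length limits, summed reads, inclusion reads divided by 2, another added count, precision weights, Fisher's exact test, a fit to retention events only and leaving out each count set.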

Additional observations from a re-analysis of the deposited data

How the results depend on the processing

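The 41 higher and 9 lower genes became 26 and 5 at an adjusted p of at most 0.01 in the authors' deposited table, and 28 and 1 with at least 20 reads in each set. At a change of at least 10 points, with summed reads, with wider length limits, with all medium-length events of the member genes and with the dropped genes put back, both counts stayed within 1.5 times. Leaving out each count set gave 41 to 42 higher and 8 to 9 lower genes, a median change of 19.3 to 20.8 points and 38 to 43 limma calls, against 20.7 points and 43 calls with all sets. Inclusion reads divided by 2 gave a median change of 18.4 points. Limma calls were 42 with 1 added to both counts, 44 in the fit to retention events only, 35 with precision weights and 43 by Fisher's exact test. AT4G08093 changed direction: over the fits without 1 count set its share changed by -21.5 to 1.94 points, the latter without lefko set 3, and its log2 odds difference reached at most 1.28, also without lefko set 3. It was -0.00754 with precision weights, -0.256 by Fisher's exact test, -0.203 without wild-type set 1, -0.102 without lefko set 1 and -0.200 without lefko set 2. Limma calls were lost under 6 settings each for AT4G33130 and AT4G04750, under 5 for FDM3, under 3 each for AT1G77460 and AT5G24210, under 2 for AT5G08500 and under 1 each for AT1G24095, AT2G34000, AT3G20280, AT3G26115 and SLK3. Without 1 count set the adjusted p was 0.0563 for AT4G33130 without wild-type set 2, 0.0665 without lefko set 1 and 0.0648 without lefko set 3, and 0.0642 to 0.0673 for AT4G04750 without wild-type set 1, 2 or 3. The cause was not tested. No paired analysis was possible because the labels give 1 sample per genotype and no replicate numbers.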
